A study of Mus musculus with 6 samples.

Results

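The 9 genes described here were measured in mouse embryonic stem cells with and without Dppa2. They are X-linked members of the Rhox and MAGE families, not all of them germline genes, and an X-linked general transcription factor gene. They are the homeobox genes Rhox5, Rhox6, Rhox9 and Rhox13, the MAGE genes Mageb4, Mageh1, Maged1 and Maged2, and Taf7l. They were chosen by name after their signals on these same arrays, in all 3 groups, had been seen, and every probe that carries 1 of the names was taken, which gave 10 probes for 9 of the 18516 genes named on the array, all on chromosome X. Their differences between the groups are therefore a description. How many of them passed the threshold used for all features is counted once below, as part of that description, and is not a test of the members. The 3 groups had 2 arrays each, with total RNA of cells grown for 3 days on gelatin in medium with LIF and 15% serum. The Flag-Dppa2 knockout lines lacked Dppa2 (15-2-/-), were homozygous for a conditional targeted allele of its paralogue Dppa4 (15-1CT/CT), and carried a piggyBac vector whose CAG promoter drives Flag-tagged Dppa2. The mock knockout lines were the same lines with the empty piggyBac vector. The wild-type lines carried neither the Dppa4 allele nor a vector, so both comparisons with wild type also contain the allele and the transduction. All lines had a mixed 129Sv and C57BL6 background. Replicates 1 and 2 came from different mothers, and the Flag-Dppa2 and mock arrays of the same number are the same knockout line, called line 1 and line 2 here.

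The Rhox genes are a cluster of homeobox genes on the mouse X chromosome that are expressed in testis, ovary and placenta, and several of them are known to be silenced by DNA methylation in somatic tissues. MAGE proteins share a MAGE homology domain through which they bind RING-type ubiquitin ligases. Some of them, such as the Mageb genes, are mostly restricted to the germline, and others, such as the Maged genes, are expressed in many tissues. Taf7l encodes a paralogue of the TFIID subunit Taf7 that is used in male germ cells. Dppa2, the protein removed and put back here, has a SAP domain and is made in early embryonic and germ cells.

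The promoters of members and of Rhox2a, a further cluster gene, are shown because the members' levels differ between the groups and CG dinucleotides are where DNA methylation is placed in mouse. RefSeq promoter windows of 300 bases (250 before and 50 after the start, GRCm38.p6) matched 7 of the 9 members. Those of 6 members and of Rhox2a are printed, without the 4 windows of Maged2, 5' to 3' on the strand of the gene, with each CG in capitals.
Rhox5, chrX:37754358-37754657, + strand: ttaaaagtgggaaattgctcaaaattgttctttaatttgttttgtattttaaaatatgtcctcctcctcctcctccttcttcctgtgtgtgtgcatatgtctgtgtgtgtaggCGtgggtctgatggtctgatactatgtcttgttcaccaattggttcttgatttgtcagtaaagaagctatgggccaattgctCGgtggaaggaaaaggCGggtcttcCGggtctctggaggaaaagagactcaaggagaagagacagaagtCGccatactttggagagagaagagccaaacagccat
Rhox13, chrX:38120590-38120889, + strand: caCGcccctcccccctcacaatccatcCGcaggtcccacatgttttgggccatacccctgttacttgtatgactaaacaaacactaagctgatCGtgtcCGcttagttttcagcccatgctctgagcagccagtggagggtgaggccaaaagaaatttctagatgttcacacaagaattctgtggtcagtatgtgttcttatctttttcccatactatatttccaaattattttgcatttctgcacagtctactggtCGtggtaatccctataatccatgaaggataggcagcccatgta
Rhox2a, chrX:37244742-37245041, + strand: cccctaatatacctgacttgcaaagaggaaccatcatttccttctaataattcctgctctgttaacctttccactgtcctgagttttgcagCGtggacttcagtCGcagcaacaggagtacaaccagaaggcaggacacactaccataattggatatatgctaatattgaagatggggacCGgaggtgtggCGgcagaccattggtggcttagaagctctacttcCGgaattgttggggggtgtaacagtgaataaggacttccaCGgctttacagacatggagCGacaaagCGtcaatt
Mageb4, chrX:86256170-86256469, - strand: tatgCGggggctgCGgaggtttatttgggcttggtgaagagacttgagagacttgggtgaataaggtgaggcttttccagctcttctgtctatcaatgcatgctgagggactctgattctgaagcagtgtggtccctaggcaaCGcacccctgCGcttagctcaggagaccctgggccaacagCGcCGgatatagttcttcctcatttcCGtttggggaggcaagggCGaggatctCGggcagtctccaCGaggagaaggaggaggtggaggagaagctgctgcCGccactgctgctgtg
Taf7l, chrX:134476441-134476740, - strand: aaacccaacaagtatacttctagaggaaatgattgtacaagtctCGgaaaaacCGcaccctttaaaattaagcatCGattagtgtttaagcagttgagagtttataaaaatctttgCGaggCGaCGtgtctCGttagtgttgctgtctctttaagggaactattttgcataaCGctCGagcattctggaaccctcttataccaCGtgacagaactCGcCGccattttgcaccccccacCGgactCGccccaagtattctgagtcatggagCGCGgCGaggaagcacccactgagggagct
Mageh1, chrX:153037514-153037813, - strand: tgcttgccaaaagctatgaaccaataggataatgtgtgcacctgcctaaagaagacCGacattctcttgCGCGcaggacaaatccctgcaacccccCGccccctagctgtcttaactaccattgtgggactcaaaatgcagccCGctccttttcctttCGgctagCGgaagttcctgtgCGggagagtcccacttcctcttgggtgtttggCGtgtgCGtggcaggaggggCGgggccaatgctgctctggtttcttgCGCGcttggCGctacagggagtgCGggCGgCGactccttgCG
Maged1, chrX:94541976-94542275, - strand: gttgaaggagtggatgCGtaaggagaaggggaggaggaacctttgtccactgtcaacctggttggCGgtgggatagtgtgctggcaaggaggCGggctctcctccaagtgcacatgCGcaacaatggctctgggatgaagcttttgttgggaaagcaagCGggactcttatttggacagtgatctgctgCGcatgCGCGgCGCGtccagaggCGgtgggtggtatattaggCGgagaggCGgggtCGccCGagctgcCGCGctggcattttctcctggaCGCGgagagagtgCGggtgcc
The Rhox5 and Rhox13 windows each hold 5 CG, and the Rhox2a window holds 8. The Mageb4 window holds 11, the Taf7l window 17, the Mageh1 window 18 and the Maged1 window 20. The Maged2 windows hold 8 to 19 CG. Over all 32851 windows of the table the median was 7 CG, and 62.0% of windows held as many as Rhox5 and Rhox13 or more, against 31.4% for Taf7l and 26.5% for Maged1. Relative to its base composition the Taf7l window has 1.03 times the CG expected, where the median window has 0.38 times. The palindrome CACGTG was found in the Taf7l window alone among the members, where the letters above read caCGtg, and in 7.15% of all windows. The letters GCGGGAA or TTCCCGC, the same motif on both strands, were found in no member's window and in 4.60% of all windows. These windows are descriptions of the sequence, and the methylation of the promoters was not analysed here.

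**Figure D1:**
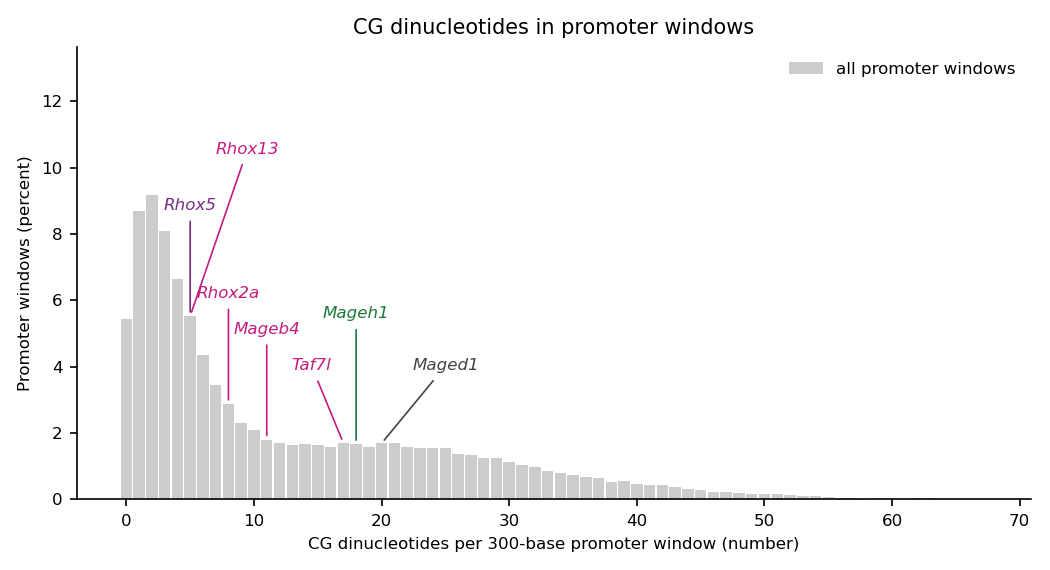
Number of CG dinucleotides (horizontal axis) in the 32851 RefSeq promoter windows of 300 bases, as the percent of windows with each number (vertical axis), with 6 members and Rhox2a marked at their own numbers. Rhox5 and Rhox13 lie at 5 CG, under the median of 7, and Taf7l, Mageh1 and Maged1 lie at 17, 18 and 20.

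Levels are log2 signals of a probe minus the 75th percentile of its array, so that a level of 0 is the signal of that percentile. The scanner flagged 55.9% to 60.4% of an array's probes as well above background, and precision is limited by how few arrays there are. The difference between the wild-type arrays was under the scanner's own error: 0.435% of 14943 bright spots were beyond its 95% limit, against 24.2% between the Flag-Dppa2 arrays and 21.8% between the mock arrays. They were counted as 1 sample, and their level is given as a mean without an error. The fit behind the calls takes them as 2 samples, which makes its p-values too small if they are 1. The targeted gene, Dppa2, was at 0.15 ± 0.29 in Flag-Dppa2 lines and -2.05 ± 0.06 in mock lines (SD, n = 2 each) and at 2.10 in wild type, so the replaced gene reached a level under that of wild type. Its probe was well above background on both mock arrays as well, and whether it lies outside the deleted part was not analysed here. All 9 embryonic stem cell markers on the array were well above background on every array. Their summed signals were 612 to 690 times the 75th percentile with Flag-Dppa2, 632 to 703 in mock and 500 to 512 in wild type. Most of each sum came from Dppa5a, at levels of 8.58 to 8.95, so the sums say little about the other markers. Zfp42 was at 3.56 (line 1) and 6.35 (line 2) with Flag-Dppa2, 3.57 and 6.39 in mock, and 3.57 and 3.63 in wild type. Klf4 was lower in line 2 than in line 1, at 5.36 and 4.88 with Flag-Dppa2 and 5.94 and 5.26 in mock. In mock against wild type 8 were higher and 1 lower, and Utf1 was called as higher (log2 difference 0.87, adjusted p = 0.0384 with limma). In Flag-Dppa2 against wild type 7 were higher and 2 lower, and 0 passed with limma, with 4 at an unadjusted p under 0.05. Pou5f1 differed there by 2.26 (adjusted p = 0.0519 with limma). The mock and wild-type arrays shared slide 1 and both Flag-Dppa2 arrays were on slide 2, with a scan of its own, so slide and Flag-Dppa2 cannot be told apart. The Y-linked genes Eif2s3y and Ddx3y exceeded background on the wild-type arrays and on none of the 4 knockout arrays. In comparisons with wild type, sex and genotype therefore cannot be told apart, which bears on X-linked genes such as these. Xist, by its probe in the fit, was well above background only in mock line 1 and Flag-Dppa2 line 2, and Tsix on all 6 arrays. The number of X chromosomes in the lines was not tested.

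All 9 members exceeded background on 2 or more arrays and entered the fit. In mock against wild type, 4 of them passed the threshold of the limma fit (Benjamini-Hochberg adjusted p under 0.05 over 18764 features), Mageh1 as 1 higher and Rhox13, Mageb4 and Taf7l as 3 lower, where 6.12% of all features passed, 2.47% higher and 3.65% lower. In Flag-Dppa2 against mock 3 members passed, Rhox13, Mageb4 and Taf7l, all higher, where 0.741% of all features passed, 0.703% higher and 0.0373% lower. In Flag-Dppa2 against wild type 1 member, Mageh1, passed as higher, where 0.533% of all features passed, 0.144% higher and 0.389% lower. The members were chosen with these contrasts in view, so nothing is read from these counts. The median log2 difference of the members was -3.64 in mock against wild type, 2.24 in Flag-Dppa2 against mock and 0.11 in Flag-Dppa2 against wild type, beside medians of 0.05, -0.01 and 0.03 over all features. Under the replicate number as a block, which pairs the Flag-Dppa2 and mock arrays of a line, 3 members, all but Mageh1, passed in mock against wild type and 0 in the other comparisons. The block also ties each wild-type array to the knockout line of its number, although the wild-type arrays are not those lines. It is therefore not a fit of the line pairing alone. With both wild-type arrays taken as 1 sample, 0 members and 0 of all features passed in each comparison with limma, while 2280 features in mock against wild type, 1470 in Flag-Dppa2 against mock and 1564 in Flag-Dppa2 against wild type had an unadjusted p under 0.05.

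Rhox13, Mageb4 and Taf7l shared 1 pattern: not well above background on either mock array, and above it in the other groups. Rhox13 is the last homeobox gene of the cluster and is translated in male germ cells. Rhox13 was at -2.50 and -1.90 in Flag-Dppa2 lines, at -6.97 and -7.62 in mock lines, and at -2.48 and -2.37 in wild type. Both Flag-Dppa2 arrays thus lay beside the wild-type arrays, 1 on either side of their range, and the mock arrays lay far under both. The fold bounds given here set the mock signals to the lowest signal of an array that was well above background. They hold only for the scanner's background correction. By them, Rhox13 was at least 7.62-fold lower in mock than in wild type (log2 difference -4.88, SE 0.31). It was at least 8.90-fold higher in Flag-Dppa2 than in mock (5.10, SE 0.31). The log2 difference between Flag-Dppa2 and wild type was 0.22 (SE 0.31).

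Mageb4, a MAGE gene of germ cells, was at -2.47 and -2.34 in Flag-Dppa2 lines, at -7.20 and -7.68 in mock lines, and at -3.59 and -3.73 in wild type. No arrays of different groups overlapped, and the order was Flag-Dppa2, wild type, mock. It was at least 3.24-fold lower in mock than in wild type (log2 difference -3.78, SE 0.19) and at least 7.70-fold higher in Flag-Dppa2 than in mock (5.03, SE 0.19). Flag-Dppa2 lines were above wild type by 1.25 on the log2 scale (SE 0.19).

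Taf7l, by its brighter probe, was at -4.76 and -4.29 in Flag-Dppa2 lines, at -7.11 and -7.78 in mock lines, and at -2.71 and -2.77 in wild type. Here the Flag-Dppa2 arrays lay between the other groups, without overlap. Taf7l was at least 6.12-fold lower in mock than in wild type (log2 difference -4.70, SE 0.29) and at least 1.78-fold higher in Flag-Dppa2 than in mock (2.92, SE 0.29). Its log2 difference between Flag-Dppa2 and wild type was -1.78 (SE 0.29). The dimmer probe of Taf7l kept the order of the groups, at -5.62 and -5.30 in Flag-Dppa2 lines, -6.99 and -7.69 in mock lines and -4.24 and -4.38 in wild type, but was well above background on 1 array only, of wild type.

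The differences of these 3 genes against mock depend on the background correction, since the mock signals are background. With normexp, an alternative correction that raises dim signals, Rhox13 differed by -1.47, Mageb4 by -0.85 and Taf7l by -1.33 in mock against wild type, and by 1.61, 1.64 and 0.58 in Flag-Dppa2 against mock. The direction held for all 3, but each of these differences was smaller than the fold bound given above for it, so the bounds do not hold under normexp.

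**Figure D2:**
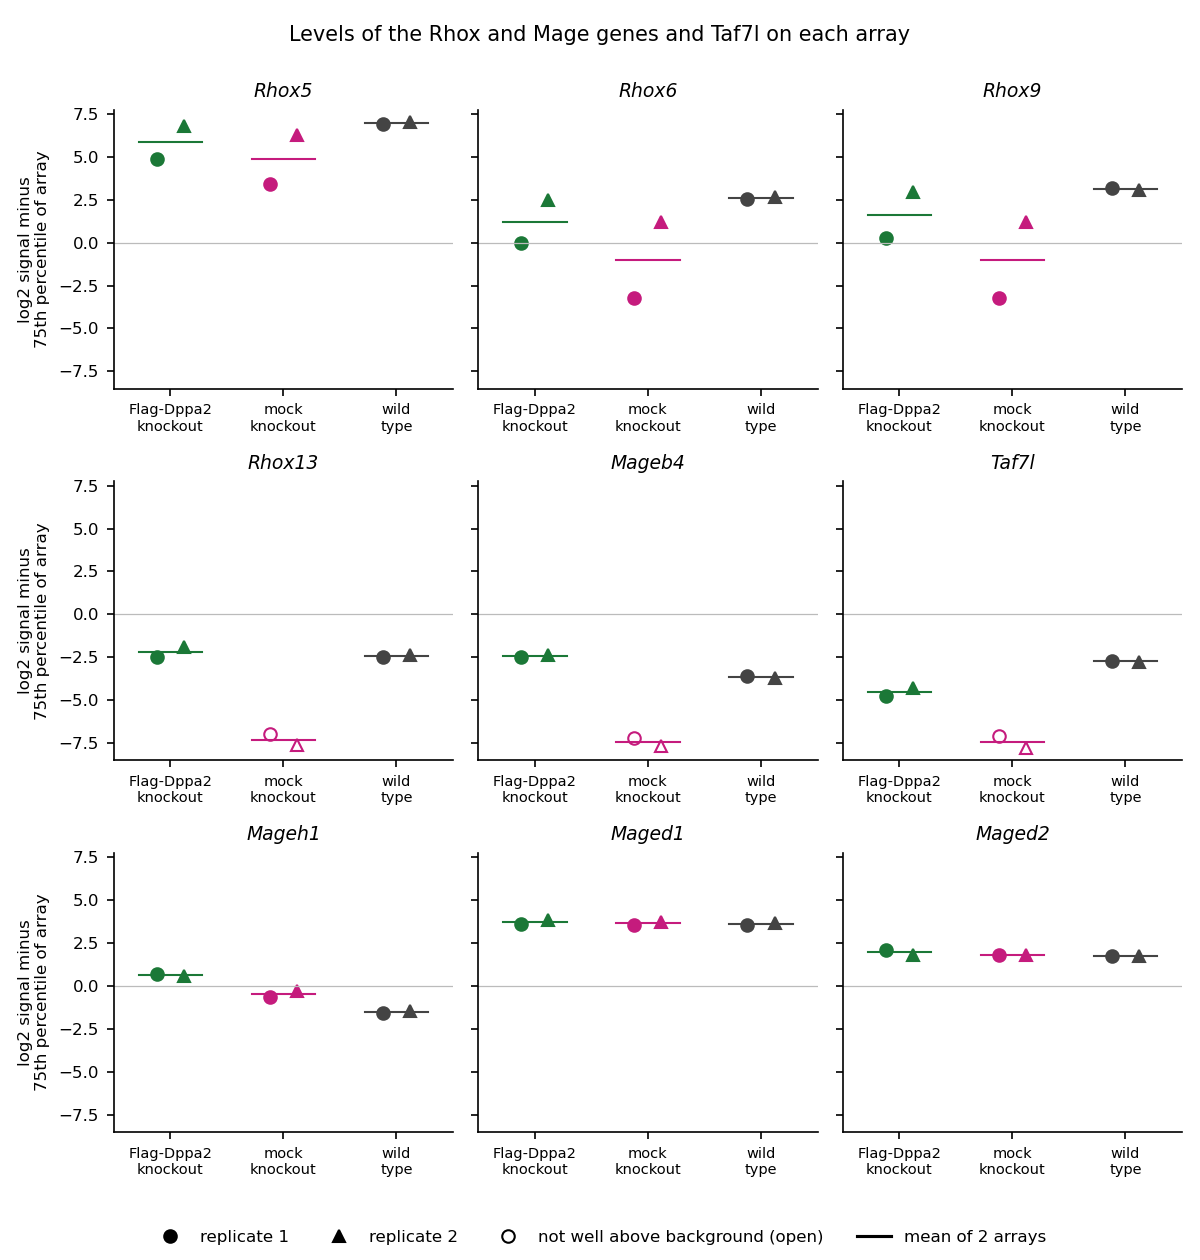
Level of each of the 9 members on every array (vertical axis, log2 signal minus the 75th percentile of the array), with the Flag-Dppa2 knockout, mock knockout and wild-type groups along the horizontal axis of each panel and open symbols for values not well above background. Rhox13, Mageb4 and Taf7l have their mock values near -7, and all values of Maged1 lie between 3.55 and 3.83.

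Rhox5, Rhox6 and Rhox9 lie near each other within the cluster, and their levels differed widely between the knockout lines of a group. Rhox5, also called Pem, is a founding gene of the family, expressed in embryonic stem cells, extraembryonic tissue and Sertoli cells. Rhox5 was at 4.88 (line 1) and 6.82 (line 2) with Flag-Dppa2, at 3.42 and 6.31 in mock, and at 6.92 and 7.02 in wild type. Both mock arrays and both Flag-Dppa2 arrays lay under wild type, line 2 by little, while the Flag-Dppa2 and mock ranges overlapped.

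Rhox6 and Rhox9 are closely related genes known from placenta and germ cells. Rhox6 was at -0.04 (line 1) and 2.49 (line 2) with Flag-Dppa2, at -3.22 and 1.19 in mock, and at 2.58 and 2.66 in wild type. Rhox9 was at 0.29 and 2.96 with Flag-Dppa2, at -3.21 and 1.21 in mock, and at 3.17 and 3.08 in wild type. In both genes line 1 without Dppa2 was the lowest array, and line 2 with Flag-Dppa2 differed from the wild-type mean by -0.13 for Rhox6 and by -0.17 for Rhox9.

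Within a line the direction was the same for all 3 genes. Flag-Dppa2 was above mock by 1.46 in line 1 and by 0.51 in line 2 for Rhox5, by 3.19 and 1.30 for Rhox6, and by 3.50 and 1.75 for Rhox9 (log2). Against the mean of the wild-type arrays, mock had log2 differences, line 1 before line 2, of -3.55 and -0.66 for Rhox5, -5.84 and -1.43 for Rhox6, and -6.34 and -1.92 for Rhox9. The gap between the lines was wide: line 2 was above line 1 by 7.42-fold for Rhox5, 21.3-fold for Rhox6 and 21.4-fold for Rhox9 in mock, and by 3.83-, 5.76- and 6.37-fold with Flag-Dppa2. Of the 18764 features, 1.20%, 0.272% and 0.261% had a gap at least as wide between the mock arrays, and 3.17%, 1.50% and 1.28% between the Flag-Dppa2 arrays. The SEs were large: in mock against wild type the log2 differences were -2.10 (SE 1.18), -3.64 (SE 1.71) and -4.13 (SE 1.74), and in Flag-Dppa2 against mock 0.98, 2.24 and 2.62 with the same SEs. The fit of 3 groups does not pair the arrays of a line, so these SEs contain the gap between the lines. Rhox13, at the end of the same cluster, had a gap between the lines of 1.57-fold in mock, below background, and of 1.51-fold with Flag-Dppa2.

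**Figure D3:**
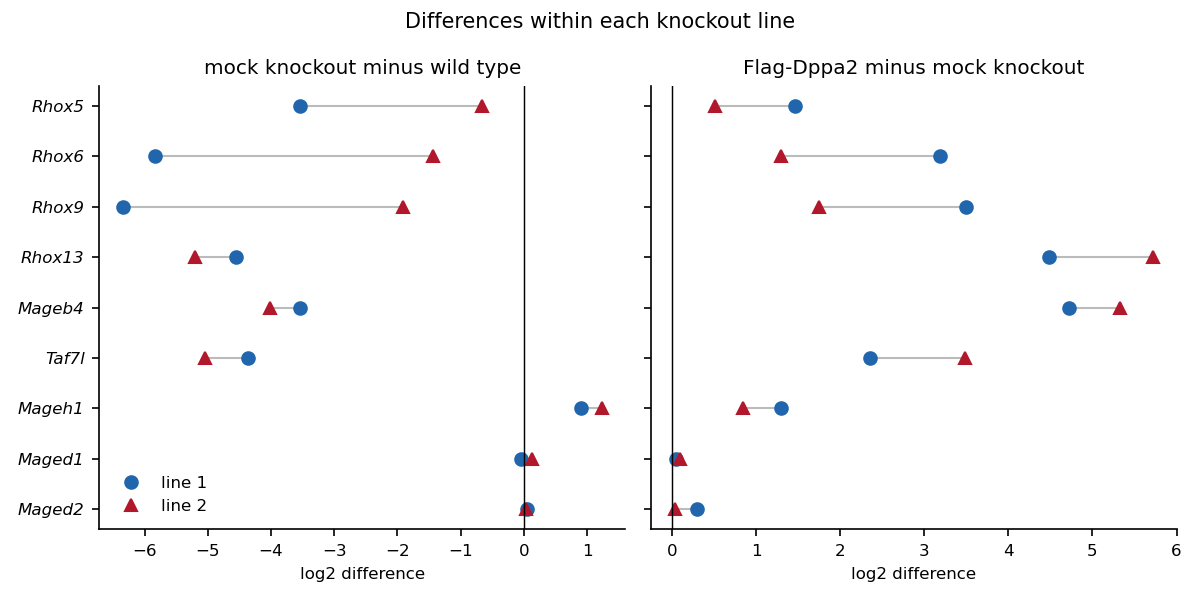
Log2 difference of each member within line 1 and line 2 (horizontal axis), for mock minus the wild-type mean on the left and Flag-Dppa2 minus mock on the right. Rhox6 and Rhox9 have differences of -5.84 and -6.34 in line 1 and of -1.43 and -1.92 in line 2 in mock against wild type, while the points of Mageh1, Maged1 and Maged2 lie close together.

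The 3 MAGE genes of wide expression did not share the low mock level. Mageh1, a small broadly expressed MAGE gene, was at 0.67 and 0.55 in Flag-Dppa2 lines, at -0.62 and -0.29 in mock lines, and at -1.56 and -1.48 in wild type. The groups did not overlap, and wild type was lowest. Mageh1 was 2.09-fold higher in mock than in wild type (log2 difference 1.06, SE 0.15) and 4.38-fold higher in Flag-Dppa2 than in wild type (2.13), and Flag-Dppa2 was 2.09-fold above mock (1.07), with the same SE.

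Maged1, an adaptor protein of apoptotic and neurotrophin signalling, was at 3.60 and 3.83 in Flag-Dppa2 lines, at 3.55 and 3.74 in mock lines, and at 3.55 and 3.64 in wild type. Maged2, whose human counterpart is needed for salt transport in the kidney, was at 2.09 and 1.81 in Flag-Dppa2 lines, at 1.79 and 1.78 in mock lines, and at 1.74 and 1.76 in wild type. The log2 differences of both genes were between 0.04 and 0.20 in the 3 comparisons, with an SE of 0.14 for Maged1 and 0.13 for Maged2.

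Beside the members, the array named 20 other genes of the families, taken by symbol alone, and 8 of them exceeded background on 2 or more arrays. In mock against wild type 1 of these 8 passed, lower, and in the other comparisons 0 passed with limma, with 3 genes at an unadjusted p under 0.05 in each. Rhox2a, 1 of 8 Rhox2 copies in the reference table, which the probe may not tell apart, was at -5.34 and -4.91 in Flag-Dppa2 lines, at -7.33 and -7.96 in mock lines, and at -2.53 and -2.58 in wild type. Neither mock array nor line 1 with Flag-Dppa2 was well above background, and the Flag-Dppa2 arrays lay between the other groups. By the scanner's background correction, Rhox2a was at least 6.95-fold lower in mock than in wild type. The log2 difference was -5.08 (SE 0.27, adjusted p = 0.00783 with limma), and it lay between -5.40 and -1.57 over the alternatives. Flag-Dppa2 against mock gave 2.51 (adjusted p = 0.057 with limma) and Flag-Dppa2 against wild type -2.57 (adjusted p = 0.0526 with limma). Over the alternatives the adjusted p of Rhox2a lay between 0.0035 and 0.136 in mock against wild type, between 0.0326 and 0.245 in Flag-Dppa2 against mock, and between 0.0213 and 0.508 in Flag-Dppa2 against wild type.

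Rhox4e, 1 of 8 Rhox4 copies, was at -0.36 ± 0.26 in Flag-Dppa2 lines and -0.46 ± 0.08 in mock lines (SD, n = 2 each) and at 0.43 in wild type. Its log2 difference was -0.89 in mock against wild type (adjusted p = 0.0532 with limma, 0.0375 to 0.35 over the alternatives) and 0.10 in Flag-Dppa2 against mock. Of the 6 tested MAGE genes, none passed. Mageb16 was at 3.20 ± 0.06 in Flag-Dppa2 lines and 3.13 ± 0.19 in mock lines (SD, n = 2 each) and at 3.12 in wild type. Nsmce3, a subunit of the SMC5/6 complex, was at 1.26 ± 0.13 in Flag-Dppa2 lines and 1.66 ± 0.02 in mock lines, with 1.24 in wild type. The imprinted genes Magel2 and Ndn differed by 0.54 and 1.51 in Flag-Dppa2 against mock and by -0.52 and -0.96 in mock against wild type. Magee1 and Magee2 lay near background in all groups, with log2 differences of 1.13 and 0.53 in mock against wild type. The remaining 12, Rhox3a, Rhox11, Magea1, Magea3, Magea4, Magea5, Magea6, Magea8, Mageb1, Mageb5, Mageb18 and Mageb16-ps1, were well above background on at most 1 array.

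**Figure D4:**
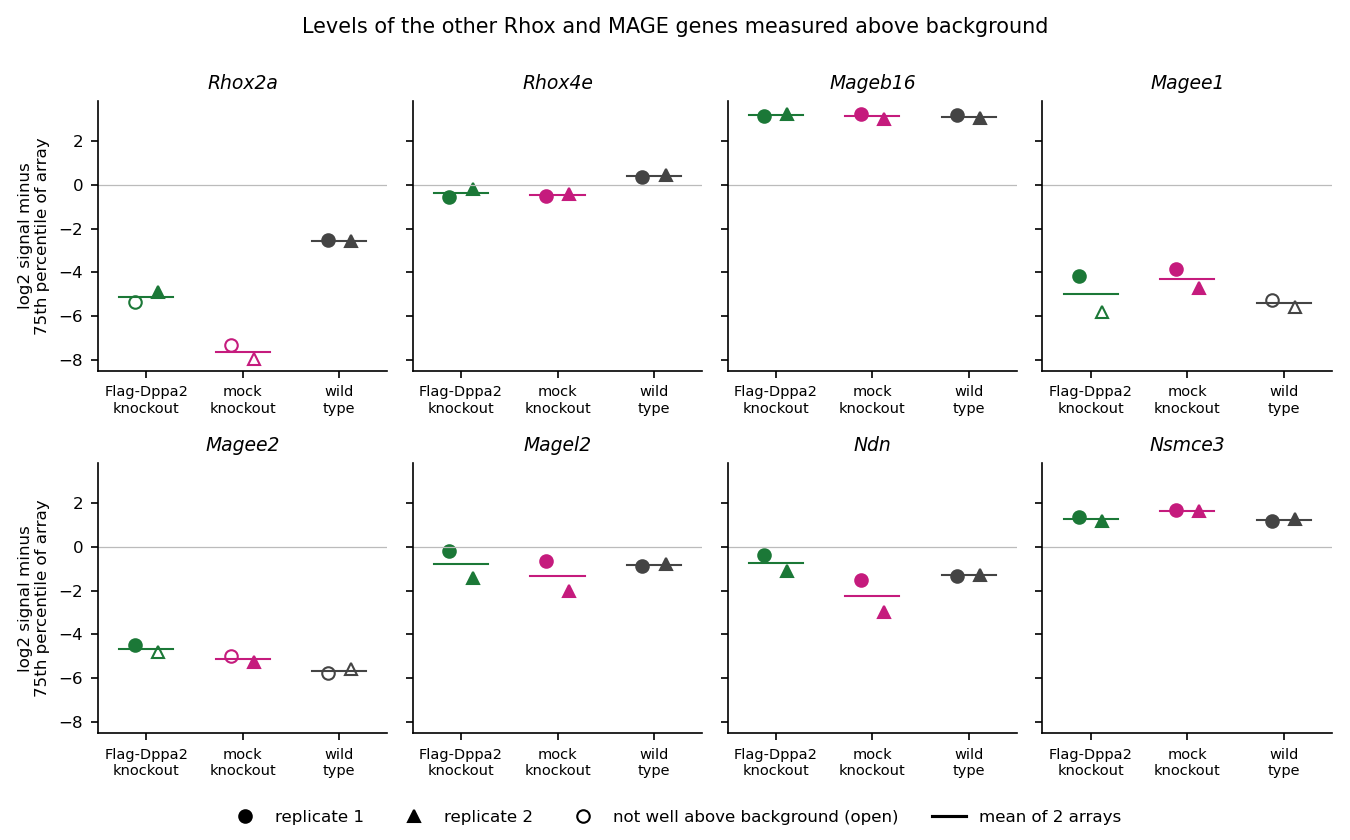
Level of the 8 other Rhox and MAGE genes in the fit on every array (vertical axis, log2 signal minus the 75th percentile of the array), by Flag-Dppa2 knockout, mock knockout and wild type, with lines at the mean of 2 arrays and open symbols for values not well above background. Rhox2a has mock values of -7.33 and -7.96 under wild-type values of -2.53 and -2.58, and the values of Mageb16 lie close to 3.13 in every group.

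The next lists hold X-linked genes of spermatogonia, TFIID genes and partners of MAGE proteins. Over all features, 3.65% fell and 2.47% rose in mock against wild type. Of the 10 X-linked spermatogonial genes listed, 4 were tested, and in mock against wild type 1 fell, Fthl17e, a ferritin-like gene (log2 difference -2.01, adjusted p = 0.0139 with limma). The list's median was -1.91 in that comparison and 1.73 in Flag-Dppa2 against mock, where 0 passed with limma and 2 had an unadjusted p under 0.05. Of 16 TFIID subunits and paralogues tested, 0 passed in any comparison with limma, with 2 at an unadjusted p under 0.05 in mock against wild type and 1 in each of the others. Taf7, the paralogue of Taf7l, differed by 0.15 (SE 0.21) in mock against wild type and by 0.06 in Flag-Dppa2 against mock. Of 5 RING ligase partners of MAGE proteins, 0 passed with limma, with 1 at an unadjusted p under 0.05 in each comparison. Trim28, the ligase partner of several MAGE proteins, differed by 0.34 (SE 0.12) in mock against wild type.

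Of 15 DNA methylation genes tested, 2 passed in mock against wild type. The de novo methyltransferase gene Dnmt3b was at 4.41 and 4.36 in Flag-Dppa2 lines, at 4.14 and 3.98 in mock lines, and at 4.77 and 4.79 in wild type, and it fell in mock against wild type (log2 difference -0.72, adjusted p = 0.0372 with limma). Mbd1, a methyl-CpG binding protein gene, rose by 0.90 (adjusted p = 0.0219 with limma). In Flag-Dppa2 against mock 0 of the 15 passed with limma, with 2 at an unadjusted p under 0.05.

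The X chromosome as a whole was near the rest of the array in its median. Of 451 tested X-linked genes, members included, 12 rose and 31 fell in mock against wild type, or 2.66% and 6.87%, beside the 2.47% and 3.65% of all features, and their median log2 difference was -0.02. In Flag-Dppa2 against mock 7 rose, or 1.55%, and 0 fell, with a median of 0.06. Of the 10 tested genes nearest to the Rhox cluster, chosen after the members' values were seen, 1 passed in mock against wild type: Lamp2, a lysosomal membrane protein gene, fell by 0.60 on the log2 scale (adjusted p = 0.0403 with limma). The flanking gene Gm9 had the widest difference of the 10, -4.46 (SE 0.85, adjusted p = 0.0591 with limma), and the median of the 10 was 0.15. In Flag-Dppa2 against mock their differences were between -0.32 and 2.13, and 0 passed with limma.

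The genes whose levels over the 6 arrays were most like a member's were sought among 3074 genes that varied, as a description in which the wild-type arrays are nearly 1 point and the arrays share lines and slides. Rhox6 and Rhox9 were each other's nearest gene (Pearson r = 0.998). Nupr1, a stress-induced chromatin protein gene of chromosome 7, was nearest to Rhox5 (r = 0.995) and was also among the first 3 for Rhox6 and Rhox9. Nupr1 was at 0.99 and 3.04 in Flag-Dppa2 lines, at -0.44 and 2.14 in mock lines, and at 3.11 and 3.05 in wild type, with line 1 under line 2 as in the Rhox genes. The cochaperone gene Bag3 and Npepl1 followed for Rhox5, and Dleu7 was among the first 3 for Rhox6 and Rhox9. For Rhox13 the nearest were Cyp2j13, Tmem114 and Aga. The lysosomal enzyme gene Aga was at 0.13 and 0.77 in Flag-Dppa2 lines, at -6.92 and -7.87 in mock lines, and at -0.31 and -0.32 in wild type. For Mageh1 they were Krtap7-1, Sftpd and Tal2, and for Taf7l Mbp, Tek and Serinc5, while Nkpd1 and Klhl23 were among the first 3 for Mageb4. Apart from the pair Rhox6 and Rhox9, no member was among the nearest 3 of another.

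Markers of other cell types moved with the groups too, and their part in the members' levels was not tested. Levels in these RNA samples cannot tell fewer expressing cells from less RNA per cell. Of 9 germ cell markers, 7 were above background on each Flag-Dppa2 array, 5 and 6 on the mock arrays, and 8 and 9 on the wild-type arrays, with summed signals of 7.37 to 13.6, 6.25 to 7.89 and 15.9 to 16.6 times the 75th percentile. Ddx4, Dazl and Mael, all germ cell genes, were not above background on either mock array, and together with Tex101 they were the 4 of 9 that fell in mock against wild type, while 0 of 9 passed in Flag-Dppa2 against mock with limma and 3 had an unadjusted p under 0.05. Of 6 markers of two-cell-like cells, 0 were above background on any knockout array and 5 on each wild-type array, and 5 fell in mock against wild type. The summed signal of 10 trophectoderm markers, a tissue in which Rhox5, Rhox6 and Rhox9 are known to be expressed, was 137 in line 1 and 32.8 in line 2 with Flag-Dppa2, 43.4 and 22.4 in mock, and 68.5 and 69.9 in wild type, with Elf5 above background on no array. Nearly all of that sum came from the keratin genes Krt8 and Krt18, and the other 8 markers summed to 2.74 and 1.68 with Flag-Dppa2, 1.72 and 2.05 in mock, and 2.59 and 2.62 in wild type. Tead4 was the 1 of 9 tested trophectoderm markers that passed in mock against wild type, as higher (log2 difference 1.07, adjusted p = 0.0436 with limma). Of 10 primitive endoderm markers, 9 or 10 were above background on Flag-Dppa2 and on mock arrays and 7 or 8 on wild-type arrays, with summed signals of 2.91 to 4.53, 2.16 to 2.30 and 2.41 to 2.44. Amn, a membrane protein gene of visceral endoderm, was the 1 of 10 that fell in mock against wild type (log2 difference -3.03, adjusted p = 0.0195 with limma). Between Flag-Dppa2 and mock, 8 of the 10 were higher with Flag-Dppa2, with a median of 1.20, and 0 passed with limma while 4 had an unadjusted p under 0.05. Of 12 fibroblast and feeder markers, 8 to 10 were above background on Flag-Dppa2 arrays, 6 to 8 on mock arrays and 10 to 11 on wild-type arrays, and 11 were tested. In mock against wild type 3 of the 11 fell, Loxl1, Fbn1 and Mmp2, and 0 rose, with 10 differences under 0 and a median of -2.54. With Flag-Dppa2 against mock the same 3 rose and 0 fell, with 7 differences above 0, 4 under 0 and a median of 0.38. Over all features 3.65% fell in the first comparison and 0.703% rose in the second. The collagen gene Col1a1, which passed in neither, was at -1.56 and -3.87 in Flag-Dppa2 lines, at -1.69 and -3.54 in mock lines, and at 0.78 and 0.75 in wild type.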

How the data were processed

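Total RNA was measured on 6 one-colour Agilent arrays. Per the file headers, the deposited intensity values come from Agilent Feature Extraction 10.7.3.1 (protocol GE1_107_Sep09), with background subtracted and no scaling across arrays. The series matrix holds log2 values that the authors made with GeneSpring GX 11, per the series text, with the same quantiles in every column (medians 5.84 to 5.86, correlation with the scanner values above 0.999, not centred), and served as an alternative.

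Of 45018 spots, 1639 controls were left out. Spots of a probe were averaged, and 41059 probes were kept. Names came from RefSeq accessions and a GRCm38.p6 table, which gave 27143 probes 1 of 18516 symbols and left 13916 unnamed. Each array's 75th percentile was subtracted. Features well above background on at least 2 of 6 arrays, with 1 probe per symbol (highest mean), entered 1 limma fit of 3 groups (limma 3.58.1, R 4.3.3, lmFit and eBayes, two-sided, 18764 features). The code of the fit was run on simulated arrays that were independent and equally variable in all groups. The wild-type arrays here are closer to each other than that, so the simulation does not vouch for the p-values. Fold bounds use the lowest signal well above background on each array. That signal is not a limit of detection, since probes that were not flagged can lie above it. Python 3.11.15, numpy 2.4.6, pandas 2.3.3 and matplotlib 3.10.9 made the figures.

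The replicate number pairs the Flag-Dppa2 and mock arrays of a line: their deviations from the group means correlated at 0.59 over 18764 features, against 0.01 for Flag-Dppa2 with wild type and -0.04 for mock with wild type. The members and lists were chosen with earlier results of these data known. Named genes were the members, family genes and called list genes (at most 5 a list), and the 3 genes most like each member whose group means were more than 1 apart, among genes with an SD of at least 0.5. Alternatives changed the scaling, background correction, filter, probes, samples, block and variance model.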

Additional observations from a re-analysis of the deposited data

Results flagged for a closer look

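Some differences ran in opposite directions in line 1 and line 2, and the difference between the lines was not tested. All are log2 differences, with line 1 before line 2, and those against wild type use the mean of its arrays. In Flag-Dppa2 against wild type Rhox13 differed by -0.073 and 0.52, and Maged1 by -0.0023 and 0.23. In mock against wild type Maged1 differed by -0.052 and 0.14. Magee1, near background, differed by 1.24 and -0.38 in Flag-Dppa2 against wild type. Magel2, an imprinted gene on chromosome 7, differed by 0.63 and -0.59 in Flag-Dppa2 against wild type and by 0.16 and -1.20 in mock against wild type. Mageb16 differed by -0.11 and 0.25 in Flag-Dppa2 against mock and by 0.14 and -0.12 in mock against wild type. Nsmce3 differed by 0.11 and -0.069 in Flag-Dppa2 against wild type. Rhox4e differed by -0.027 and 0.22 in Flag-Dppa2 against mock.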

How the results depend on the processing

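The counts of members that passed, 4 in mock against wild type, 3 in Flag-Dppa2 against mock and 1 in Flag-Dppa2 against wild type, changed by over 1.5 times under these alternatives. In mock against wild type the count was 1 with only features well above background on all 6 arrays (6 members tested), 0 with the wild-type arrays averaged, and 0 with only both groups and a replicate block. In Flag-Dppa2 against mock the count was 1 with normexp, where 53 of all features passed. It was 0 with the filter on all 6 arrays, with the replicate block, and with the wild-type arrays averaged. It was also 0 with only the groups compared, with or without a replicate block. The filter on all 6 arrays leaves out Rhox13, Mageb4 and Taf7l before the fit, so its lower counts follow from the filter. In Flag-Dppa2 against wild type the count was 2 with quantile normalization, 3 with normexp and 2 with the authors' log2 values. Of all 18764 features, 222, 374 and 223 passed under these, against 100 in the main fit, so calls rose over the whole array. The count was 0 with no filter, where 6 of 32432 features passed, with the replicate block, and with the wild-type arrays averaged. It was also 0 with only the groups compared, with or without a replicate block. With only the groups compared, 0 of all 18764 features passed in Flag-Dppa2 against mock, with or without a replicate block. With that block 0 of all features passed in the comparisons with wild type too, and without it 5 passed in Flag-Dppa2 against wild type. Fits without 1 replicate leave 1 array in a group, and no count is read from them.

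For the other family genes, the count of 1 in mock against wild type became 2 with normexp, an intensity trend, only both groups, or only slide 1. Of all features, 1653 passed with normexp, 1761 with the trend and 888 with only both groups or only slide 1. The count became 0 with only both groups and a replicate block, and with the wild-type arrays averaged. Under either of these, 0 of all features passed. In Flag-Dppa2 against mock 0 became 1 with quantile normalization or the authors' log2 values, where 155 and 153 of all features passed. In Flag-Dppa2 against wild type 0 became 1 with these or normexp, where 222, 223 and 374 of all features passed. The cause of these changes was not tested. Of the members' differences under the alternatives, 410 moved by less than 1 SE of the main difference, 49 moved by more, and 0 of the called ones reversed. The replicate block, the averaged wild type, the intensity trend, the fits of fewer groups and the filters leave a member's difference as it was. The 410 therefore include differences that could not move, and they do not measure stability. Both numbers include the fits without 1 replicate. Normexp was run on the median signal of a spot. The total of features passing was 1149, 139 and 100 in mock against wild type, Flag-Dppa2 against mock and Flag-Dppa2 against wild type, and 494, 4 and 0 with the replicate block.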
